A study of Mus musculus with 18 samples.

Results

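The small leucine-rich proteoglycans are secreted core proteins built of leucine-rich repeats. In connective tissue they sit on collagen fibrils, and several of them bind growth factors of the Tgfβ family. The 8 genes described here are decorin (*Dcn*), biglycan (*Bgn*), asporin (*Aspn*), lumican (*Lum*), fibromodulin (*Fmod*), prolargin (*Prelp*), osteomodulin (*Omd*) and osteoglycin (*Ogn*), of 22909 gene symbols named on the array. They were chosen by name, each was matched by its symbol, and each had a single transcript cluster, the set of probes summarized to 1 value per gene. Decorin and biglycan carry chondroitin or dermatan sulfate chains, asporin is their closest relative and lacks such a chain, lumican, fibromodulin, prolargin and osteomodulin form another class, of which several members carry keratan sulfate, and osteoglycin belongs to a further class. In the kidney glomerulus biglycan and decorin are known as products of mesangial cells, the contractile cells that hold the capillary loops together, and decorin is known as an antagonist of Tgfβ.

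The samples were GFP-positive cells sorted from dissociated glomeruli of *Cd2ap*-/- mutant mice (B6.129X1-Cd2ap tm1Shaw/J) and of control mice at 5 weeks of age. *Cd2ap* encodes an adapter protein of the podocyte slit diaphragm, and its loss gives a mouse model of focal segmental glomerulosclerosis. Mesangial cells carried a *Meis1-GFP* transgene and endothelial cells *Tie2-GFP*, and podocytes carried a GFP transgene of their own, with 3 arrays for each cell type and genotype, 18 in all. The mutation was present throughout the mouse. Each cell type was taken through its own reporter line, so reporter line and cell type cannot be told apart. The genotype label of every control sample is wild type, and the groups are called so here, but the mesangial ones are titled control and their columns are marked +/-, while the other controls are titled wild type and marked +/+, so the 2 kinds of control may not share a genotype. The study calls replicates of a group independent biological ones. The arrays of a group are called A, B and C, which only names them and pairs nothing.

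Several family members lie beside each other in the mouse genome. Neighbours were sought among protein-coding genes only. In GRCm38.p6 *Aspn* (chr13:49544443-49567565), *Omd* (chr13:49582462-49592612) and *Ogn* (chr13:49608015-49624501) follow one another with no other protein-coding gene between them. *Ecm2*, a further leucine-rich repeat gene, lies just before *Aspn*. *Dcn* (chr10:97479500-97518163) is followed by *Lum* (chr10:97565501-97572703). *Prelp* (chr1:133910304-133930102) and *Fmod* (chr1:134037254-134048280) are also neighbours. *Bgn* stands apart from the family on the X chromosome (chrX:73483601-73495936).

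The 250 bases before the annotated start of each gene are given for the *Ogn*, *Aspn* and *Omd* neighbours, which lie side by side, and for *Bgn*, the member that reached a signal of 100 on the most arrays. The sequences are from RefSeq (GRCm38.p6, plus strand, 5′ to 3′), which matched 6 of the 8 members. *Dcn* and *Lum* had no entry. Capitals mark matches on either strand to 4 motifs: TATAAA, known as the core of a TATA box, GGGCGG, the letters of an Sp1 site, TGANTCA, those of an AP-1 site, and CAGACA, those of a Smad element.
Ogn (chr13:49607765-49608014): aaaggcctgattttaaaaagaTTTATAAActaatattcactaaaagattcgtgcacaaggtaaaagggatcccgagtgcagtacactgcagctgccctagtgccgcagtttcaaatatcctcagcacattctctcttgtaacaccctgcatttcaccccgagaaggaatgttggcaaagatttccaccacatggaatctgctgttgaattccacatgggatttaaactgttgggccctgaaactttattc
Aspn (chr13:49544193-49544442): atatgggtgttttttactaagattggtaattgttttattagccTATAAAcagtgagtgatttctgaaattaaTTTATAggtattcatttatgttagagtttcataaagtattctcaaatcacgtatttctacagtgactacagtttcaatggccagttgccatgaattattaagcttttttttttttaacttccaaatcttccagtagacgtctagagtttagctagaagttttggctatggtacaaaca
Omd (chr13:49582212-49582461): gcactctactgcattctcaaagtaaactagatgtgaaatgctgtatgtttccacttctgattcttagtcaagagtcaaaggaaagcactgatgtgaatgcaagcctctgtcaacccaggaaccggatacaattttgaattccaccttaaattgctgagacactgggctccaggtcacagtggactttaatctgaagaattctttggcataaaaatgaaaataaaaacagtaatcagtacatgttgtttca
Bgn (chrX:73483351-73483600): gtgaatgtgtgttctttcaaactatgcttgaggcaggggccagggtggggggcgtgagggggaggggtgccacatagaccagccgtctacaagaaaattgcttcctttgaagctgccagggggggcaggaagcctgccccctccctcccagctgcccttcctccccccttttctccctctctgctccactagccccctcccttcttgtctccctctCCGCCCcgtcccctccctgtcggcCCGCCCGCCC
*Bgn* held 3 matches to GGGCGG, all on the minus strand, starting at -34, -10 and -6 from the gene start, and the last pair overlapped. *Ogn* held 2 overlapping matches to TATAAA, starting at -229 and -227, and *Aspn* held 2, starting at -207 and -178. The *Prelp* window (chr1:133921402-133921651, minus strand) lies before the transcript start that the table uses, which is inside the gene span given above and not at its 5′ end. *Omd*, *Fmod* and *Prelp* held none of these letters in the window, and neither the AP-1 nor the Smad letters were found in the 6 windows. Of 32851 windows of the same length in the table, 12.4% held TATAAA, 32.7% GGGCGG, 6.75% TGANTCA and 17.1% CAGACA. The GC content was 64.4% in the *Bgn* window, 38.4% in that of *Omd* and 30.0% in that of *Aspn*.

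Signals are the authors' RMA values on a linear scale, where array medians lay between 62.8 and 71.6. Between 9697 and 10097 of 28856 clusters reached 100 on an array, and a gene entered a test when at least 1 of its arrays reached 100. The number of arrays limits the precision. *Cd2ap* itself gave 828.9 ± 37.6 in mutant and 1027.1 ± 101.0 in wild type mesangial cells (SD, n = 3), and its log2 differences of -0.31, -0.23 and 0.18 in mesangial cells, podocytes and endothelial cells had adjusted p of 0.151, 0.504 and 0.336 (limma). All mutant arrays lay below all wild type arrays in mesangial cells and podocytes and above them in endothelial cells. Whether the probes of *Cd2ap* lie outside the deleted part was not checked, so this signal does not test the labels, on which each genotype rests. Podocyte, endothelial and mesangial marker lists each had their highest sums on the 6 arrays of the cell type they name. Wild type mesangial array C stood apart, with a summed signal of 8 podocyte markers of 3837.9 against 929.3 and 1078.9 in arrays A and B, and of 8 endothelial markers of 7678.4 against 2310.2 and 2699.5. Its erythroid markers summed to 7226.8 against 558.8 and 270.8, its tubule markers to 905.9 against 376.9 and 353.5, and its leukocyte markers to 825.1 against 385.1 and 360.2. Mutant podocyte array C also stood apart, with a summed signal of 8 mesangial markers of 1126.3 against 3449.8 and 3182.8. Mutant podocyte array A had an erythroid sum of 5377.4 against 691.9 and 202.1 on arrays B and C, and an endothelial sum of 2579.7 against 1184.4 and 761.9. Values without these arrays stand beside the results they bear on most.

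The family split into 5 genes that reached a signal of 100 on at least 1 array and 3 that did not. The plot of signals by array shows all 8.

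**Figure D1:**
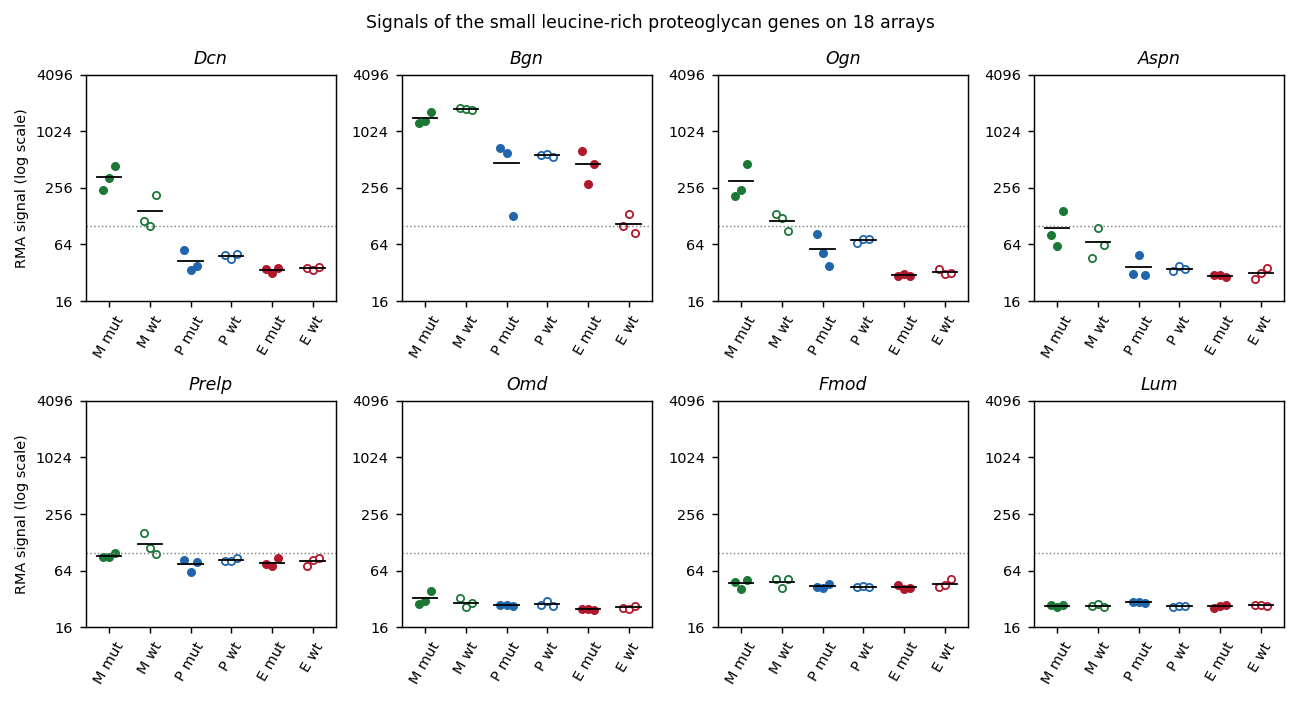
RMA signal (log scale) of the 8 genes on 18 arrays, in mesangial cells (M), podocytes (P) and endothelial cells (E), with mutant (mut) arrays filled, wild type (wt) arrays open, a bar at each group mean and a dotted line at 100. *Dcn* and *Ogn* were highest on the 3 mutant mesangial arrays, *Bgn* was highest on the 6 mesangial arrays, and *Omd*, *Fmod* and *Lum* stayed below 100 everywhere.

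*Dcn* encodes decorin, which coats collagen fibrils and binds Tgfβ. Its signals in mutant mesangial cells were 241.7, 327.1 and 435.5, and in wild type mesangial cells 114.4, 101.6 and 214.9. All 3 mutant arrays lay above all 3 wild type arrays. Signals were 55.7, 34.2 and 37.6 in mutant podocytes and 49.7, 45.2 and 50.8 in wild type podocytes. In endothelial cells they were 35.5, 31.5 and 35.6 in mutants and 35.7, 34.6 and 36.7 in wild type. Only the 6 mesangial arrays thus reached 100, and the genotypes overlapped in podocytes and in endothelial cells. In the order of group means (334.8 ± 97.2, 143.6 ± 62.1, 48.6 ± 2.94, 42.5 ± 11.5, 35.7 and 34.2) the ranges of the first 3 groups, mutant mesangial, wild type mesangial and wild type podocyte, did not overlap, and those of the later neighbours did.

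*Ogn* encodes osteoglycin, also called mimecan, a small matrix proteoglycan known from bone and vessel walls. Its signals were 211.4, 241.7 and 461.6 in mutant mesangial cells and 134.2, 121.9 and 89 in wild type mesangial cells. The genotypes did not overlap, and array C, the highest wild type array for *Dcn*, was the lowest for *Ogn*. Podocytes gave 83.1, 51.8 and 37.5 in mutants and 65.8, 72.8 and 73.5 in wild type. Endothelial cells gave 29.9, 31.1 and 29.8 in mutants and 35.5, 30.9 and 31.6 in wild type. Every podocyte array lay above every endothelial array, and in both cell types the genotypes overlapped.

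*Aspn* encodes asporin, a relative of decorin that binds collagen and Tgfβ. Its signals were 80, 62.3 and 146.0 in mutant mesangial cells and 45.5, 96.7 and 62.9 in wild type mesangial cells, and the genotypes overlapped. A single array, mutant mesangial C, reached 100. The 12 arrays of the other cell types lay between 27.6 and 49.9.

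*Bgn* encodes biglycan, the close relative of decorin that is also known, in soluble form, as a ligand of Toll-like receptors. Mesangial cells gave 1253.4, 1325.5 and 1633.7 in mutants and 1817.1, 1771.7 and 1704.6 in wild type, so that all mutant arrays lay below all wild type arrays. In podocytes the signals were 674.6, 602.9 and 129.7 in mutants and 565.6, 579.2 and 550.9 in wild type. Mutant array C was far below the other 5. In endothelial cells they were 630.2, 280.1 and 456.7 in mutants and 101.0, 134.7 and 84.3 in wild type, and all mutant arrays lay above all wild type arrays. In the order of group means (1764.5 ± 56.6, 1404.2 ± 202.0, 565.2 ± 14.2, 469.1 ± 296.1, 455.6 ± 175.1 and 106.7 ± 25.7, n = 3 each) wild type podocytes, mutant podocytes and mutant endothelial cells overlapped with their neighbour, and the other neighbours did not.

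*Prelp* encodes prolargin, which is known to link basement membranes to collagen. Wild type mesangial cells gave 159.8, 111.5 and 96.8 and mutant mesangial cells 90, 88.9 and 98.6. Only wild type arrays A and B reached 100. The podocyte and endothelial arrays ranged from 62.3 to 87.9.

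The other 3 members stayed close to their own lowest values. *Lum*, the gene of lumican, which spaces collagen fibrils in the cornea, ranged from 25.9 to 29.9 over all 18 arrays. *Fmod*, the gene of the tendon and cartilage proteoglycan fibromodulin, ranged from 40.6 to 52.9. *Omd*, the gene of osteomodulin, known from bone, ranged from 24.7 to 39, with its highest signal on mutant mesangial array C, which also gave the highest *Dcn*, *Ogn* and *Aspn* signals. *Lum* lies beside *Dcn*, and *Omd* lies between *Aspn* and *Ogn*, and neither reached 100 on any array.

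Mutant and wild type cells were compared within each cell type, to ask which matrix genes differ in the mutant glomerulus. A gene was called when its limma p was below 0.05 and its fold change above 1.5, the limits of the study's own screen, and Benjamini-Hochberg adjusted p over all tested clusters stand beside each call. In mesangial cells *Dcn* and *Ogn* were called higher, of 5 members tested, and none lower. The background was 2.08% of 11457 clusters called higher and 3.12% called lower, and 2.92% had an adjusted p below 0.05. No member passed the adjusted threshold in the mesangial fit, and 3 of the 5 had an unadjusted p below 0.05. With all 18 arrays in 1 fit, *Dcn* had an adjusted p of 0.00794 and *Ogn* of 0.00922 (limma). That fit shares the spread of the cell types, and both genes lay below 100 on every podocyte and endothelial array. Its p is thus not a measure of the mesangial spread alone. With the signal minimum asked of all 3 arrays of a genotype *Ogn* had 0.0435 and *Dcn* 0.0589. *Bgn*, the other of the 3, had an adjusted p of 0.737 with all 18 arrays in 1 fit, and its unadjusted p was not below 0.05 in 4 of 6 fits that each dropped 1 array. *Aspn* passed the signal minimum through 1 mutant array and *Prelp* through wild type arrays alone. The median difference of the 5 was 0.46, the value of *Aspn*, against -0.02 over all tested clusters, and over all 8 members fitted with no minimum it was 0.07, against 0.01 over all clusters.

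*Dcn* was 2.4-fold higher in mutant mesangial cells, a log2 difference of 1.26 (SE 0.33, 95% confidence interval 0.49 to 2.04, adjusted p = 0.0949, limma). Without wild type mesangial array C the difference was 1.59 with an adjusted p of 0.0303. It ran from 1.05 to 1.59 when single arrays were dropped, with adjusted p from 0.0303 to 0.239, and *Dcn* was called each time. Decorin was singled out by the study, which used RNA-seq beside these arrays, so that its call here is not independent evidence.

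*Ogn* was 2.53-fold higher, a log2 difference of 1.34 (SE 0.31, 95% confidence interval 0.61 to 2.07, adjusted p = 0.0728, limma). It was 1.16 without wild type mesangial array C, and single arrays dropped in turn left it between 1.00 and 1.56, with adjusted p from 0.0919 to 0.182. *Aspn*, its neighbour on chromosome 13, differed by 0.46 (SE 0.38, adjusted p = 0.521, limma), with an interval of -0.43 to 1.36 that takes in both 0 and the value of *Ogn*, and it was 0.21 without wild type array A and 0.75 without wild type array B.

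*Bgn* was lower in mutant mesangial cells by a log2 difference of -0.34 (SE 0.12, adjusted p = 0.163, limma). This is 1.26-fold and below the fold limit, so it was not called. *Prelp* gave -0.38 (SE 0.18, adjusted p = 0.292, limma). It was -0.53 without wild type mesangial array C and -0.17 without array A. *Omd*, *Fmod* and *Lum*, fitted with no signal minimum, gave 0.14, -0.06 and -0.01, with adjusted p of 0.735, 0.889 and 0.958.

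Fewer cells of a type in a sort and less RNA per cell cannot be told apart in such bulk samples. The summed mesangial markers were 8415.4 to 9280.3 on mutant and 10856.6 to 12022.4 on wild type mesangial arrays, with 2 of 8 called lower. Of 6 smooth muscle and juxtaglomerular markers, 2 were called higher and 1 lower, with a median difference of 0.07. Their sum was 1761.4, 2736.5 and 3011.1 on mutant arrays A, B and C and 1524.4 to 1885.2 in wild type. The order of this sum over the 3 mutant arrays is that of *Dcn* and of *Ogn*. It is also that of 5 parietal epithelium markers, whose sum was 457.5, 502.3 and 591.9 in mutants and 354.8 to 395.4 in wild type, and of which *Cldn1*, a tight junction gene, was the 1 called higher of 3 tested (188.0, 193.4 and 313.9 against 108.6, 117.4 and 92.7). Of these markers only *Cldn1* had that order. In mutants *Pax8* gave 67.7, 72.6 and 68.1, *Ncam1* 48.3, 48.1 and 48.7, *Krt7* 77.4, 70 and 81, and *Cdh6* 76.2, 118.2 and 80.3. *Acta2*, the smooth muscle actin gene, gave 810.7, 1689.0 and 1561.9 in mutants and 626.8, 680.4 and 538.8 in wild type. *Tagln* gave 159.9, 312.9 and 494.7 in mutants and 152.4, 159.3 and 162.6 in wild type. Mutant and wild type means were 287.0 and 298.7 for *Myh11*, 295.8 and 288.5 for *Ren1*, 103.2 and 92.7 for *Cnn1*, and 140.7 and 246.1 for *Akr1b7*. Of the smooth muscle and juxtaglomerular markers only *Tagln* and *Myh11* had the order of their sum. The part of these markers in the *Dcn* and *Ogn* differences was not tested. None of the 4 fibroblast markers tested was called. Of the 9 on the list, *Pdgfra*, at 756.1 to 1247.9, and *Col1a1*, at 106.6 to 130.8, reached 100 on all 6 mesangial arrays, *Lsp1* and *Pi16* reached it on some, with highest signals of 349.6 and 280.9, and *Dpt*, *Clec3b*, *Mfap5*, *Scara5* and *Col3a1* on none. *Dpt* lay at 25.3 to 28.2, and *Col3a1* at 81.4 to 85.7 in mutants, above the 68.5 to 73.4 of wild type. The summed signal of all 9 fibroblast markers was 1349.1 to 1787.5 in mutants and 1626.3 to 1923.7 in wild type.

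**Figure D2:**
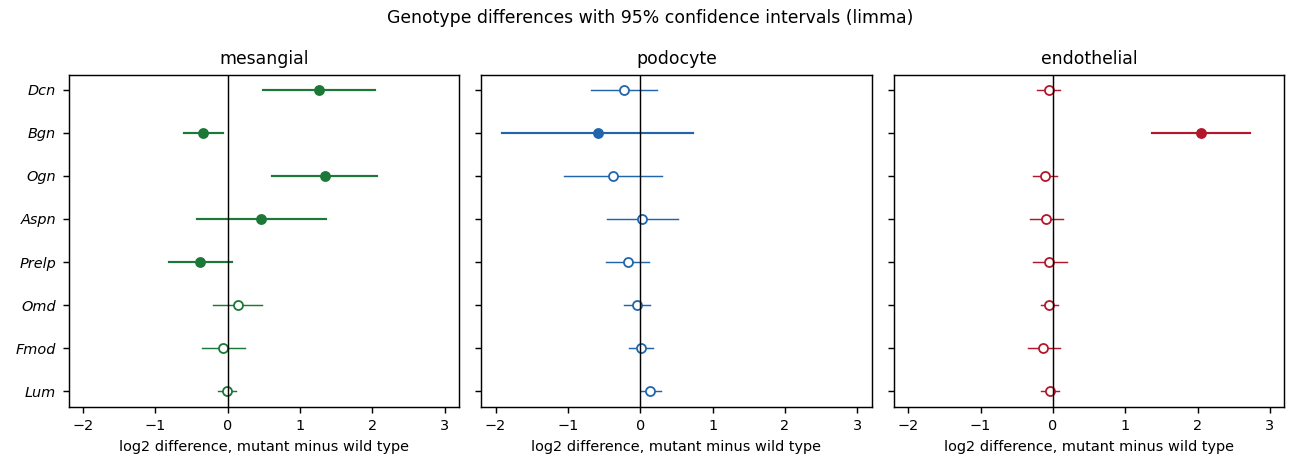
Log2 difference, mutant minus wild type, with its 95% confidence interval (limma) for the 8 genes in mesangial cells, podocytes and endothelial cells, where filled points passed the signal minimum and open points, fitted with no minimum, did not. *Dcn* (1.26) and *Ogn* (1.34) lay above 0 in mesangial cells and *Bgn* (2.05) in endothelial cells.

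In podocytes *Bgn* was the only member with a signal of 100, and it was not called (-0.59, SE 0.57, 95% confidence interval -1.91 to 0.73, adjusted p = 0.666, limma). The background was 1.26% of 12113 clusters called higher, 4.34% called lower and 0.0578% with an adjusted p below 0.05. Without mutant array C the difference turned to 0.17. On that array mesangial markers were low as well: *Itga8*, an integrin gene of mesangial cells, gave 134.3 against 723.6 and 472.1 on mutant arrays A and B, and *Agtr1a*, an angiotensin receptor gene, 138.9 against 619.6 and 941.3. The part of these markers was not tested. With no signal minimum *Dcn* gave -0.22 (adjusted p = 0.692) and *Ogn* -0.38 (adjusted p = 0.663). *Lum* signals of 29.1 to 29.9 in mutant podocytes lay above the 26.3 to 27.3 of wild type, a log2 difference of 0.14 with an adjusted p of 0.448 (limma) at signals far below 100.

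In endothelial cells *Bgn*, again the only member tested, was called higher in mutants. It was 4.13-fold higher, a log2 difference of 2.05 (SE 0.29, 95% confidence interval 1.37 to 2.72, adjusted p = 0.0182, limma). Of 11330 clusters 2.96% were called higher and 0.865% lower, and 1.29% had an adjusted p below 0.05. The median difference of all tested clusters was 0.07. Dropping single arrays left it between 1.77 and 2.36 (adjusted p from 0.00681 to 0.0972), called each time, and the fit with no signal minimum kept the difference at an adjusted p of 0.0781. No other member reached 100 on an endothelial array, and with no minimum *Dcn* gave -0.06 (adjusted p = 0.675), *Ogn* -0.11 (adjusted p = 0.465) and *Prelp* -0.05 (adjusted p = 0.843).

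Since *Bgn* was highest in mesangial cells, its rise in sorted endothelial cells was set beside the mesangial markers. Their summed signal was 1029.2, 739.9 and 746.9 on the mutant and 693.3, 665.5 and 692.4 on the wild type endothelial arrays. Of the 8 markers, *Meis1* and *Serpine2* reached 100, and *Serpine2*, a serine protease inhibitor gene, was called higher, with 467.4, 177.0 and 250.5 in mutants and 118.8, 95.4 and 131.3 in wild type. The order of the mutant arrays is the same for *Serpine2* and *Bgn*. The other 6 mesangial markers stayed below 100 in both genotypes. *Pdgfrb*, a receptor gene and defining marker of mesangial cells, gave 51.2, 52.4 and 55.4 in mutants and 65, 53.2 and 58.7 in wild type, and *Itga8* gave 49.7 to 66.3 in mutants and 61.3 to 96.4 in wild type. *Dcn* and *Ogn*, the other mesangial members, were at 31.5 to 35.6 and 29.8 to 31.1 on the mutant arrays. Endothelial markers gave sums of 16709.6 to 17569.1 in mutants and 15142.0 to 16878.9 in wild type, and 0 of 8 were called.

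**Figure D3:**
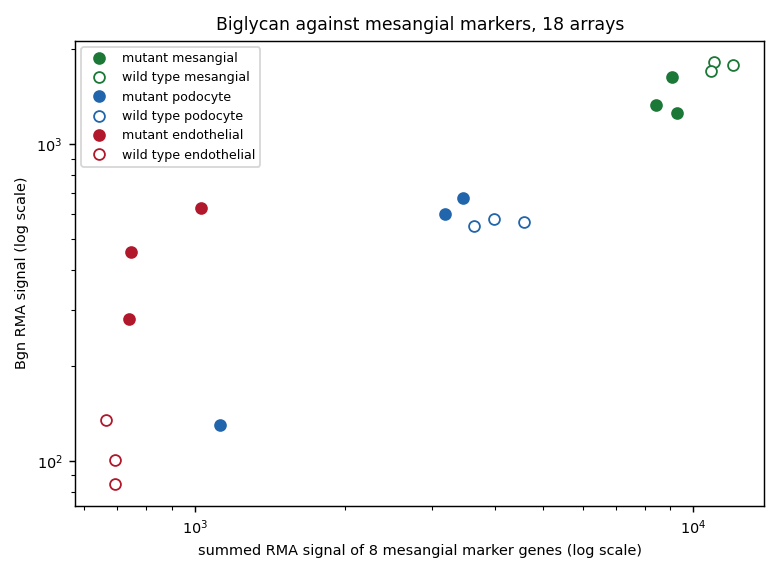
*Bgn* RMA signal against the summed RMA signal of 8 mesangial marker genes on 18 arrays (both axes log scale), coloured by cell type, with mutant arrays filled and wild type arrays open. The 3 mutant endothelial arrays, at 280.1 to 630.2, lay above the wild type endothelial arrays at marker sums of 739.9 to 1029.2, and mutant podocyte array C was low on both axes.

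Among the 9 wild type arrays the cell types were compared in 1 fit, with a call at an adjusted p below 0.05 and a fold above 1.5. Of 4 members tested, *Bgn*, *Dcn* and *Ogn* were called higher in mesangial cells than in podocytes, where 9.24% of 12537 clusters were called higher and 5.9% lower. The same 3 were called higher in mesangial than in endothelial cells (background 9.58% higher, 7.91% lower), and *Bgn* and *Ogn* higher in podocytes than in endothelial cells (background 9.83% higher, 11.6% lower). *Dcn*, *Ogn* and *Prelp* passed the signal minimum through wild type mesangial arrays alone, so the minimum favoured this direction, and the tally is a description. Fitted with no minimum, the difference between mesangial cells and podocytes had an adjusted p of 0.00459 for *Dcn* and of 0.0154 for *Ogn* (limma).

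*Bgn* was 3.12-fold higher in wild type mesangial cells than in podocytes (log2 difference 1.64, SE 0.15, adjusted p = 4.57e-05, limma). It was 16.9-fold higher in mesangial than in endothelial cells (4.07, SE 0.15, adjusted p = 7.20e-08, limma) and 5.4-fold higher in podocytes than in endothelial cells (2.43, SE 0.15, adjusted p = 2.91e-06, limma). *Dcn* was higher in mesangial cells than in podocytes by a log2 difference of 1.48 (SE 0.23, adjusted p = 0.00121, limma), and 1.15 on the log2 scale without wild type mesangial array C. Against endothelial cells the difference was 1.93 (adjusted p = 2.02e-04, limma), and 1.60 without that array, and between podocytes and endothelial cells it differed by 0.44 (adjusted p = 0.165, limma, and 0.00419 without that array, still under 1.5-fold). *Ogn* was higher in mesangial cells than in podocytes by 0.68 (SE 0.15, adjusted p = 0.00705, limma) and than in endothelial cells by 1.80 (adjusted p = 1.51e-05, limma), and higher in podocytes than in endothelial cells by 1.12 (adjusted p = 2.78e-04, limma). Without wild type mesangial array C the first and second of these were 0.86 and 1.97. *Dcn* in podocytes and both genes in endothelial cells lay near the lowest values of each gene and below every array median, so the size of these folds is not measured. The *Ogn* call against podocytes was lost without wild type mesangial array A (0.56, under 1.5-fold) and with all 18 arrays in 1 fit (0.68, adjusted p = 0.0773, limma).

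Wild type podocyte arrays themselves carried mesangial marker sums of 3627.3 to 4578.8 and endothelial marker sums of 4331.6 to 5754.4. The part of other cells in the podocyte signals of *Bgn* and *Ogn* was not tested. *Prelp* was higher in mesangial cells than in podocytes by 0.52 (adjusted p = 0.0441, limma) and than in endothelial cells by 0.57 (adjusted p = 0.026, limma), both under 1.5-fold. Without wild type mesangial array C these were 0.67 and 0.73, past that limit, and without array A 0.31 (adjusted p = 0.0888, limma) and 0.37 (adjusted p = 0.0489). *Aspn* had no wild type array at 100. Fitted with no minimum it was higher in mesangial cells by 0.88 against podocytes (adjusted p = 0.0456, limma) and by 1.04 against endothelial cells (adjusted p = 0.0191, limma). Its wild type signals of 33.3 to 38 in podocytes and 27.6 to 35.7 in endothelial cells lay below every array median. The size of these folds is therefore not measured.

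Whether the genotype difference itself varied between cell types was examined by interaction terms over all 18 arrays. *Dcn*, *Ogn*, *Aspn* and *Prelp* passed the signal minimum through mesangial arrays alone. In endothelial cells *Dcn*, *Ogn* and *Aspn*, and in podocytes *Dcn* and *Aspn*, lay below every array median. Genotype differences there were thus not measured, and the interaction terms of these genes are a description only. Of 5 members tested, *Bgn* was called between podocytes and endothelial cells, at -2.64 (SE 0.63, 95% confidence interval -3.97 to -1.30, adjusted p = 0.0416, limma), against a background of 2.11% of 13523 clusters. It was -1.87 without mutant podocyte array C, with an adjusted p of 0.0174, and it was lost with no signal minimum, under quantile normalization and in 13 of 18 fits that each dropped 1 array, with adjusted p from 0.00735 to 0.111 over the 18 fits. Between mesangial and endothelial cells *Bgn* gave -2.38 (adjusted p = 0.0822, limma), *Dcn* 1.32 (adjusted p = 0.0834) and *Ogn* 1.45 (adjusted p = 0.083), and no member was called (background 1.07%). Between mesangial cells and podocytes *Dcn* gave 1.49 (adjusted p = 0.0733, limma) and *Ogn* 1.71 (adjusted p = 0.0529), with no member called (background 0.717%). Without wild type mesangial array C *Dcn* gave 1.82 (adjusted p = 0.00514, limma) here and 1.66 (adjusted p = 0.0114) against endothelial cells, and *Ogn* 1.54 (adjusted p = 0.0766) and 1.27 (adjusted p = 0.172). Both were called in the mesangial to podocyte term without mutant podocyte array A, *Dcn* at 1.70 (adjusted p = 0.0188, limma) and *Ogn* at 2.02 (adjusted p = 0.00573). Without mutant mesangial array A they were called there too, *Dcn* at 1.70 (adjusted p = 0.0448, limma) and *Ogn* at 1.93 (adjusted p = 0.0397). Without mutant podocyte array C *Dcn* gave 1.42 (adjusted p = 0.106, limma) and *Ogn* 1.45 (adjusted p = 0.0791) in the mesangial to podocyte term, and *Ogn* 1.45 (adjusted p = 0.0465) and *Bgn* -2.38 (adjusted p = 0.0015) in the mesangial to endothelial term. All 3 members had unadjusted p below 0.05 in the mesangial to endothelial term, and *Dcn* and *Ogn* in the mesangial to podocyte term. Under quantile normalization of the 18 arrays both were called in the mesangial to podocyte term, *Dcn* at 1.53 (adjusted p = 0.0412, limma) and *Ogn* at 1.74 (adjusted p = 0.0416), while against endothelial cells they gave 1.28 (adjusted p = 0.107) and 1.40 (adjusted p = 0.124).

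Across the 18 arrays log2 signals of *Dcn* and *Ogn* had a Pearson r of 0.93. *Aspn* gave 0.86 with each of them, *Omd* gave 0.82 with *Ogn*, and *Bgn* gave 0.74 with *Dcn*. These are descriptions, since arrays share cell type and genotype. Wild type mesangial array C was off the common line of *Dcn* and *Ogn*, high for the first and low for the second among wild type mesangial arrays.

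**Figure D4:**
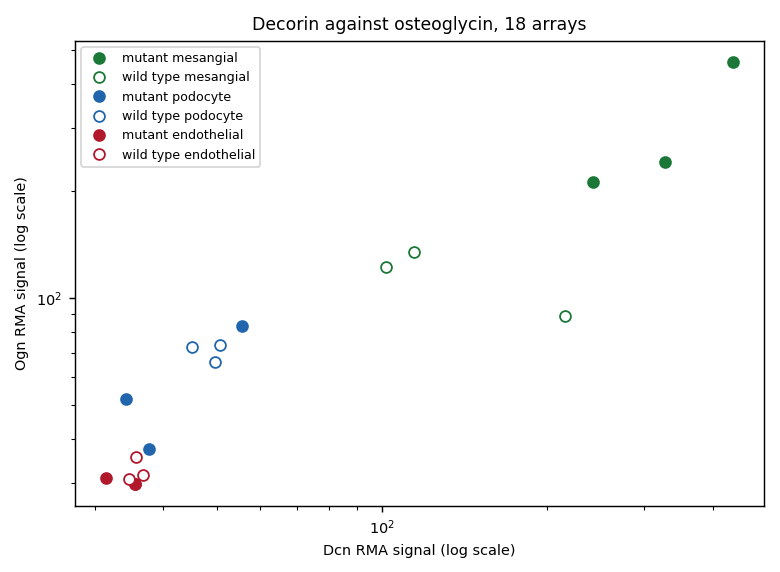
*Ogn* against *Dcn* RMA signal on 18 arrays (both axes log scale), coloured by cell type, with mutant arrays filled and wild type arrays open. The 3 mutant mesangial arrays lay highest for both genes, from 241.7 to 435.5 for *Dcn* and from 211.4 to 461.6 for *Ogn*.

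Among 8849 single-symbol genes that reached 100 on at least 3 arrays, the 5 whose log2 signals followed *Dcn* most closely over the 18 arrays were *Ppp1r14a* (r = 0.968), a smooth muscle phosphatase inhibitor gene, *Col8a1* (0.961), a network collagen gene, *Pi15* (0.961), *Col6a3* (0.958), a chain of collagen VI, and *Ctsk* (0.957), the collagen-cutting protease cathepsin K. For *Ogn* 4 of the 5 were *Abcb1a* (0.968), a drug transporter gene, *Ror1* (0.959), *Col8a1* (0.957) and *H6pd* (0.954). *Col8a1* was on both lists, with mean signals of 945.0 in mutant and 492.0 in wild type mesangial cells and between 56 and 138.7 in the other groups. For *Bgn* they were *Serpine2* (0.958), *Rnf141* (0.955), *Vcl* (0.943), the focal adhesion gene vinculin, *Arhgdib* (0.932) and *Itga1* (0.930), a collagen receptor subunit. As for *Bgn*, mean *Serpine2* signals were 298.3 in mutant and 115.2 in wild type endothelial cells, and those of *Itga1* 190.8 and 76.2.

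Partners of the family were described by list and by role. Of all tested clusters 2.08% were called higher and 3.12% lower in mesangial cells. The shares were 1.26% and 4.34% in podocytes and 2.96% and 0.865% in endothelial cells. No enzyme that builds the sugar chains was called in mesangial cells. Of 22 chondroitin and dermatan sulfate genes 11 were tested there, with a median difference of -0.06, and of 9 keratan sulfate genes 5, with a median of 0.04. In podocytes *Dse*, the epimerase that turns chondroitin into dermatan sulfate, was called lower (99.4 ± 7.17 against 163.9 ± 24.7, n = 3, log2 difference -0.71, adjusted p = 0.143, limma), as was *B3gnt2*, which extends keratan sulfate chains (-0.70, adjusted p = 0.327, limma). The *B3gnt2* call was lost in 5 of 6 fits that each dropped 1 array, and without mutant podocyte array C its difference was -0.36. Its mutant signals of 380.3, 290.1 and 165.0 had the order of the summed endothelial markers (2579.7, 1184.4 and 761.9, with 7 of 8 called lower) and of the summed mesangial markers on these arrays, and the part of such cells was not tested. That of *Dse* was -0.67 without the same array. No gene of either list was called in endothelial cells, with 13 and 6 tested.

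Of the collagens that these proteoglycans bind, 2 of 8 tested in mesangial cells were called higher and none lower (background 2.08% higher, 3.12% lower), with a list median of 0.20. *Col12a1*, a fibril-associated collagen gene, gave 1985.5, 2069.7 and 2310.1 in mutants and 533.1, 622.9 and 494.4 in wild type (1.95, SE 0.12, adjusted p = 0.00244, limma). *Col14a1*, its relative and a known ligand of decorin, gave 507.4, 351.2 and 562.8 in mutants and 82.6, 85.9 and 138.9 in wild type (2.22, SE 0.25, adjusted p = 0.0134, limma). Genotypes did not overlap for either gene. Without wild type mesangial array C the differences were 1.88 for *Col12a1* and 2.46 for *Col14a1*. In podocytes *Col12a1* was called higher (304.1, 513.9 and 183.6 against 166.5, 147.1 and 141.5, 1.02, adjusted p = 0.246, limma), the only one of 9 tested (background 1.26% higher, 4.34% lower). It gave 1.39 without mutant array C and 0.64 without mutant array B. In endothelial cells none of 4 was called (background 2.96% higher, 0.865% lower). Smooth muscle and juxtaglomerular markers were also high on mutant podocyte arrays, with sums of 3189.6, 2556.2 and 1133.4 against 870.9 to 906.2 in wild type, 2 of 5 tested called higher and a median difference of 1.26. Sums of the 5 parietal epithelium markers were 1039.6, 1317.2 and 976.0 on mutant podocyte arrays, the order of *Col12a1*, and 728.4 to 774.5 in wild type, with 2 called higher and 1 lower. The part of both lists in the podocyte calls of *Col12a1* and, below, of *Tgfb3* was not tested.

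Of 11 Tgfβ genes tested in mesangial cells 3 were called higher and none lower (background 2.08% higher, 3.12% lower), with a list median of 0.01. They were *Thbs1*, *Tgfb3* and *Tgfb2*, which the study named for mutant mesangial cells, so that the count is not independent evidence. The study also used RNA-seq, and for thrombospondin an immunostain, and neither was analysed here. *Thbs1*, the gene of thrombospondin, which activates latent Tgfβ and also binds decorin, gave 706.4, 1265.2 and 1317.8 in mutants and 255.8, 139.6 and 217.1 in wild type (2.42, SE 0.31, adjusted p = 0.0169, limma). *Tgfb3* gave 281.0 ± 40.8 against 115.4 ± 42.2 (1.34, adjusted p = 0.0595, limma) and *Tgfb2* gave 182.1 ± 20.4 against 106.9 ± 16 (0.77, adjusted p = 0.0426, limma), n = 3 each. Without wild type mesangial array C the 3 differences were 2.48, 1.04 and 0.86 in the order *Thbs1*, *Tgfb3* and *Tgfb2*. In podocytes *Tgfb3* was called, of 11 tested (137.9, 82.9 and 86.2 against 54.7, 50.6 and 70.8, 0.78, adjusted p = 0.213, limma, background 1.26% higher, 4.34% lower), and gave 0.88 without mutant array C. It passed the signal minimum through mutant array A alone. In endothelial cells, where *Bgn* was higher, *Ltbp1*, a latent Tgfβ binding protein gene, of 10 tested (603.9 ± 142.8 against 399.9 ± 76.9, 0.59, adjusted p = 0.197, limma), was called (background 2.96% higher, 0.865% lower). That call was lost without mutant array C (0.41) and without wild type array C (0.43). *Tgfb2* and *Tgfb3* signals in endothelial cells overlapped between genotypes.

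**Figure D5:**
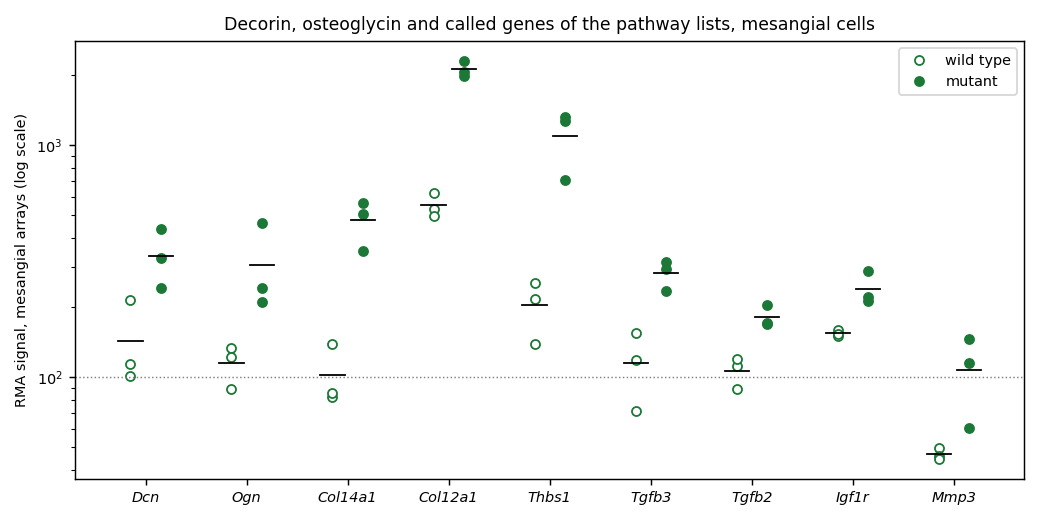
RMA signal (log scale) of *Dcn*, *Ogn* and the called genes of the partner lists on the 3 wild type (open) and 3 mutant (filled) mesangial arrays, with a bar at each group mean and a dotted line at 100. Every gene drawn was higher on all mutant than on all wild type arrays, *Col12a1* with mean signals of 2121.8 and 550.1 and *Thbs1* with 1096.5 and 204.2.

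Among 9 receptors for decorin, biglycan and lumican tested in mesangial cells, *Igf1r*, the insulin-like growth factor receptor gene, was called higher (240.3 ± 39.6 against 155.3 ± 4.5, n = 3, 0.62, adjusted p = 0.0563, limma, background 2.08% higher, 3.12% lower), and the list median was -0.16. The *Igf1r* call was lost without mutant mesangial array B (0.49). *Tlr4*, a Toll-like receptor gene named here after its values were seen, had the list's only adjusted p below 0.05, at 1.42-fold and so not called (717.0, 788.4 and 719.9 against 482.7, 550.8 and 538.4, 0.50, SE 0.09, adjusted p = 0.0425, limma). In endothelial cells *Cd14*, a co-receptor for soluble biglycan, was the only call of 7 (168.6, 89.8 and 132.2 in mutants and 70.3, 68.3 and 61.5 in wild type, 0.92, adjusted p = 0.0863, limma, background 2.96% higher, 0.865% lower). *Cd14*, which is also a monocyte gene, passed the signal minimum through mutant arrays A and C alone. The summed signal of 8 leukocyte markers was 646.6, 498.9 and 403.7 on mutant and 388.0 to 451.1 on wild type endothelial arrays, with 0 of 2 tested called, a median of 0.51 for those tested and *Csf1r* and *Itgam* below 100 on all 6 arrays. The 2 tested were *Ptprc* (168.3, 101.2 and 76.3 in mutants and 74.8, 97.7 and 69.5 in wild type) and *Lyz2* (202.2, 134.3 and 54.1 against 53, 92.9 and 93.4). Both were highest on mutant array A, as was *Cd14*. The part of such cells was not tested. In podocytes *Kdr*, the endothelial Vegf receptor gene, was called lower (-2.44, adjusted p = 0.135, limma), against a background of 1.26% higher and 4.34% lower. The difference was -2.09 without mutant array C (adjusted p = 0.164, limma). Without mutant array A, the mutant array with the highest endothelial marker sum, it was -3.04 (adjusted p = 0.00464, limma). *Kdr* is itself 1 of the 8 endothelial markers, whose sum there was 761.9 to 2579.7 in mutants and 4331.6 to 5754.4 in wild type and of which 7, *Kdr* among them, were called lower.

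Of 7 proteases tested in mesangial cells *Mmp3*, the stromelysin that cleaves decorin, was called higher (60.3, 115.3 and 146.1 in mutants and 49.5, 45.9 and 44.6 in wild type, 1.11, adjusted p = 0.106, limma, background 2.08% higher, 3.12% lower). It passed the signal minimum through mutant arrays B and C alone. *Adamts5*, an aggrecanase that cuts proteoglycans, was called lower in endothelial cells (403.8 ± 142.2 against 955.2 ± 147.1, n = 3, -1.29, adjusted p = 0.054, limma, background 2.96% higher, 0.865% lower) and in podocytes (-1.67, adjusted p = 0.218, limma, background 1.26% higher, 4.34% lower), in each case the only call of 6 tested. On podocyte arrays it gave 641.6, 269.8 and 132.5 in mutants, the order of the summed endothelial markers (2579.7, 1184.4 and 761.9), and 1026.5, 999.5 and 724.6 in wild type. The part of endothelial cells was not tested. Without mutant podocyte array C the difference was -1.12 (adjusted p = 0.254, limma), and without mutant podocyte array A it was -2.26 (adjusted p = 0.029, limma). *Mmp3* gave 1.08 without wild type mesangial array C. *Col12a1*, *Thbs1*, *Tgfb3* and *Mmp3* had, over the mutant mesangial arrays, the order of the smooth muscle and juxtaglomerular sums (1761.4, 2736.5 and 3011.1) and of the parietal epithelium sums. The other called partner genes there did not have it: *Col14a1* gave 507.4, 351.2 and 562.8, *Tgfb2* 171.7, 205.6 and 169.0, and *Igf1r* 213.3, 285.7 and 221.7. Over 3 arrays such an order is a description only, and the part of those markers in these calls was not tested.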

How the data were processed

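Sorted GFP-positive glomerular cells gave RNA that was amplified in a single round (Ribo-SPIA) for Affymetrix Mouse Gene 1.0 ST arrays, 3 per cell type and genotype. The table the authors deposited holds, for 28856 transcript clusters, RMA intensity on a linear scale (background correction, quantile normalization and probe summary), which was used, and 18 further columns headed as normalized, which were not. Columns name cell type and genotype but no replicate number of the labels. No 2 arrays held identical values. RNA-seq was not analysed here.

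The log2 signals were fitted with limma 3.58.1 in R 4.3.3, per cell type for genotype, over the 9 wild type arrays for cell types, and over all 18 arrays for interactions, on clusters with a signal of at least 100 on at least 1 array of the fit. Probability values were adjusted by Benjamini-Hochberg over all tested clusters. The genotype call (p below 0.05, fold above 1.5) follows the study's methods, and other calls used adjusted p. The fits were tested on simulated data. The members, partner lists and markers were chosen with earlier results of these data known. Named genes were the 8 members, *Cd2ap*, called genes of the partner lists (at most 4 per list and cell type), the 5 genes closest to each member with 100 on at least 3 arrays, *Tgfb2*, *Tgfb3*, *Thbs1*, and markers beside a member. Other signal minimums, fits and normalizations, and leaving out each array, were alternatives. Gene positions and sequences came from RefSeq (GRCm38.p6), and no coordinates of the array table were used. A gene that the rule for named genes picks, and the name of the podocyte reporter, are not reported here.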

Additional observations from a re-analysis of the deposited data

Results flagged for a closer look

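The genotype effect on *Bgn* differed between podocytes and endothelial cells by a tested interaction. The log2 difference was -0.59 in podocytes and 2.05 in endothelial cells, and the interaction was -2.64 (SE 0.63, adjusted p = 0.0416, limma, 3 arrays per group). Mutant podocyte array C, with a *Bgn* signal of 129.7 against 674.6 and 602.9 on arrays A and B, widened it, and without that array it was -1.87 (adjusted p = 0.0174). The call was lost in 13 of 18 fits that each dropped 1 array, with values from -3.06 to -1.87. All 3 mutant endothelial arrays lay above all 3 wild type ones, whereas the podocyte genotypes overlapped.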

How the results depend on the processing

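Of 583 member values recomputed under other settings, 539 kept their direction and side of the threshold, 19 fell below it, 18 rose above it and 7 reversed, all 7 when an array was left out. For settings such as no signal minimum or an array dropped outside the comparison, the log2 difference could not change, only its p. The share that stayed the same is thus no measure of stability. With adjusted p in place of unadjusted p, the mesangial genotype calls among members went from 2 to 0. In the fit of all 18 arrays *Dcn* and *Ogn* had adjusted p of 0.00794 and 0.00922 (limma). That fit takes part of its spread from podocyte and endothelial arrays, where both genes lay below 100. Its p therefore does not measure the spread of the mesangial arrays alone and does not restore the calls. Under quantile normalization the mesangial to podocyte interaction went from 0 to 2 called members (*Dcn* 1.53, *Ogn* 1.74). Both passed the signal minimum through mesangial arrays alone, so these terms are a description. The podocyte to endothelial interaction went from 1 to 0 under quantile normalization (*Bgn* -2.48) and with no signal minimum (-2.64, adjusted p = 0.0635), and the cause was not tested.

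Leaving out each array gave 2 to 2 called members for the mesangial genotype comparison, 0 to 0 in podocytes and 1 to 1 in endothelial cells. It gave 2 to 4, 3 to 4 and 2 to 2 for wild type mesangial cells against podocytes, mesangial against endothelial cells and podocytes against endothelial cells, and 0 to 2, 0 to 2 and 0 to 1 for the interactions in the order mesangial to podocyte, mesangial to endothelial and podocyte to endothelial. Reversals arose for *Bgn* in podocytes (-1.02 to 0.17) and in the mesangial to podocyte interaction (-0.51 to 0.68), for *Prelp* between wild type podocytes and endothelial cells (-0.02 to 0.11) and in the mesangial to podocyte (-0.36 to 0.00) and podocyte to endothelial (-0.21 to 0.00) interactions, and in the latter for *Aspn* (-0.11 to 0.24) and *Ogn* (-0.57 to 0.00). Over all clusters the podocyte genotype calls, 679, ranged from 575 to 1235, and those of the podocyte to endothelial interaction, 285, from 30 to 1865, and were 78 under quantile normalization.

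Members with signals near their lowest values give small differences on this scale, and 3 arrays per group leave wide intervals. No paired analysis was made, because no number in the labels or column names is shared between groups and nothing else pairs the samples.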

Other observations

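Of 10 further small leucine-rich repeat genes of the family, 8 stayed below 100 on all 18 arrays and *Chadl* reached 104.2 on 1 array. *Ecm2*, the neighbour of *Aspn*, was the exception. Mean signals were 133.5 in wild type mesangial cells, 62.9 in wild type podocytes and 155.2 in wild type endothelial cells. *Ecm2* was higher in mesangial cells than in podocytes (log2 difference 1.13, SE 0.23, adjusted p = 0.0058, limma) and lower in podocytes than in endothelial cells (-1.36, SE 0.23, adjusted p = 0.00138, limma), and between mesangial and endothelial cells it differed by -0.23 (adjusted p = 0.488, limma). In mutants the means were 112.2, 40.6 and 124.7, and the genotype differences of -0.25 in mesangial and -0.33 in endothelial cells had adjusted p of 0.433 and 0.293 (limma).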
